A study of Mus musculus with 6 samples.

Results

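Rab GTPases are small GTP-binding proteins that mark the membranes of a cell and steer vesicles between them. A Rab is switched on by an exchange factor that loads it with GTP and switched off by a GTPase-activating protein, and in its active form it recruits effectors such as tethers and motors. In macrophages Rabs are known for guiding phagosomes towards lysosomes, for recycling receptors to the surface and for releasing granules. Of 15487 genes in the deposited data, 54 have a symbol made of Rab, a digit and at most 3 further characters, and all 54 were followed here. By function 50 of these are Rab GTPase genes. The other 4 carry the name without being GTPases: Rab3il1 and Rab3ip code for exchange factors, and Rab10os and Rab26os are non-coding genes named for the strand opposite Rab10 and Rab26.

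RNA was sequenced from tumour-associated macrophages that had been sorted by flow cytometry out of CT26 tumours, taken on day 15. CT26 is a mouse colon carcinoma line. The macrophages of both groups are labelled wild type on the BALB/C background, and the groups differ in the implanted cells, CT26-Sg-Con (3 libraries) or CT26-Sg-C3 (3 libraries), read here as a control guide RNA and one against complement C3. The age of the mice, the sorting markers, whether the Sg-C3 cells were 1 clone and whether the 3 libraries of a group came from different mice are not stated by the labels, so the p-values cover the spread between libraries and that spread may be technical.

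The 6 libraries summed to 474579 to 487358 FPKM (fragments per kilobase of gene and per megaread mapped), and the steps between the lowest values implied about 17.7 to 19.3 megareads each. Libraries are numbered 1 to 3 within a group in the order of deposition, and the third of each group has a title of another style than the first and second. Macrophage marker genes were present in every library, but their summed level was lower in Sg-C3 (5791 to 7200 FPKM) than in Sg-Con (10895 to 13096). Lyz2, the largest part of that sum, fell from a mean of 7712 to 3378 FPKM. With Cd68, Itgam and Mertk, 4 of 8 were called lower (50%, against 31.7% of all genes tested). The other 4 did not pass: Adgre1 (means of 173 in Sg-Con and 172 in Sg-C3), Cd14 (2101 and 2014), Csf1r (402 and 324) and Fcgr1 (85.9 and 84.5). Summed markers of other cells went from 137 to 216 up to 376 to 1322 FPKM for 11 neutrophil genes and from 14.1 to 19.2 up to 47.8 to 74.3 for 12 dendritic cell genes. They went from 3.52 to 8.85 up to 49.9 to 59.2 for 13 T and NK cell genes, from 67.6 to 93.8 up to 144 to 209 for 11 fibroblast genes and from 33.6 to 65.1 down to 4.12 to 8.84 for 10 epithelial genes. Of the fibroblast sum, Dcn alone made up 19.06, 28.75 and 17.9 FPKM in Sg-Con and 120.89, 134.7 and 85.28 in Sg-C3. Col3a1, Fap and Pdgfrb were also called higher, Col1a2 and Thy1 lower, and Col1a1 and Pdgfra did not pass. Called higher, against 12.7% of all genes tested, were 4 of 6 tested neutrophil genes, 4 of 5 dendritic, 7 of 7 T and NK and 4 of 8 fibroblast genes, and called lower, against 31.7%, were 3 of 4 epithelial and 2 of 8 fibroblast genes. Of these, 5 of the 7 T and NK genes and 1 dendritic gene (Kit) passed the filter on low values through Sg-C3 alone, and 1 epithelial gene (Krt8) through Sg-Con alone, so that the filter itself favoured their calls. No marker was at 0 in all 6 libraries. In such bulk samples, fewer cells of a type and less RNA per cell cannot be told apart, and the part of these markers in the Rab values was not tested.

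Rab genes changed in both directions between the groups, also within one route of transport. Lower in macrophages from Sg-C3 tumours were, among others, Rab11a, Rab31, Rab21, Rab7b, Rab29, the granule gene Rab3d and the exchange factor gene Rab3il1. Rab8b and Rab10, which share the recycling and surface group with Rab11a, were higher, as were Rab43 and the granule gene Rab44. The summed FPKM of the GTPase genes was 1912, 2121 and 2036 in Sg-Con and 1955, 1959 and 1763 in Sg-C3, so that the 2 groups overlapped in total Rab RNA. Of the GTPase genes 5 averaged at least 100 FPKM over the 6 libraries, 23 lay from 10 to under 100, 12 from 1 to under 10 and 10 under 1. Rab7 was the highest in 5 of 6 libraries.

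Of the 54 genes, 45 had at least 1 FPKM in at least 3 of 6 libraries and were tested with limma on log2(FPKM + 1), Sg-C3 minus Sg-Con. At a Benjamini-Hochberg adjusted p below 0.05, 26 of 45 (57.8%) were called, against 44.4% of all 11198 genes tested. Higher were 10 (22.2%, against 12.7% of all genes) and lower 16 (35.6%, against 31.7%). Of the 10, Rab37 was tested only because its Sg-C3 values passed the filter. The median log2 fold change of the 45 was -0.16, the same as that of all genes tested (-0.16). In all 26 called genes the 3 Sg-C3 values lay wholly above or below the Sg-Con values, which a call on those same values favours. So they did in 30 of the 45 (57.6% of all genes tested), in 10 of them above (16.2%) and in 20 below (41.4%). After median-ratio scaling, which takes the median of all genes from -0.16 to -0.02, 10 were higher and 12 lower (18.6% and 19.1% of all genes), and the share of calls that were lower fell from 71.5% to 50.5% over all genes. Higher members numbered 6 without Sg-Con library 2, 5 without Sg-C3 library 1 and 6 without Sg-C3 library 2. Over all genes tested the higher calls fell as well in these settings, from 1418 to 998, 963 and 889. Of the 26 called genes, 17 (12 lower and 5 higher) were called in the same direction under all 14 alternative settings that gave them a value. The 5 higher were Rab10, Rab10os, Rab37, Rab43 and Rab44. Among them Rab37 owes its test to Sg-C3 values, and exons of Rab10os overlap those of Rab10. The share of calls kept in this way over all genes was not counted.

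**Figure D1:**
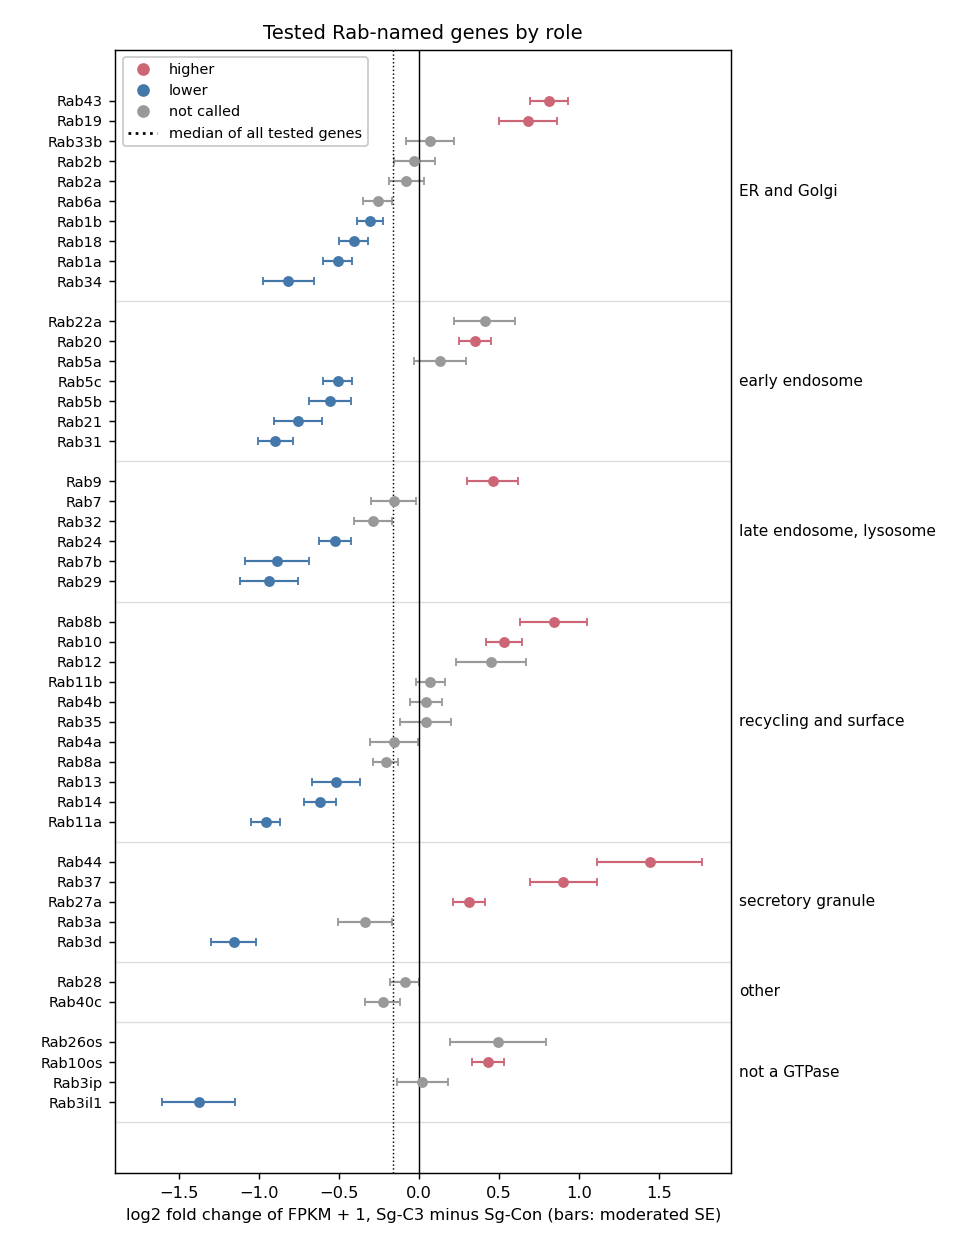
Log2 fold change of FPKM + 1 (x axis, Sg-C3 minus Sg-Con, bars are limma's moderated SE, 3 libraries per group) for the 45 tested genes (y axis), grouped by role. Red points are called higher (10), blue points lower (16) and grey points did not pass, and each of the first 5 groups holds genes on both sides of 0.

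Sequences upstream of the genes were read from RefSeq (GRCm38.p6, 250 bases before to 50 after each start), which holds a promoter for 45 of the 54 genes (Rab44 is among those without an entry). Both strands were searched for 6 short motifs: the E-box CACGTG, an interferon-stimulated element (GAAA, any 2 bases, GAAA), a GAS element TTCNNNGAA, a PU.1 core GAGGAAG, an NF-kB-like site (GGGA, any 2 bases, TTCC) and the GC box GGGCGG. The GC box was in 41 of the 61 promoters of these genes, against 35.7% of all 32851 promoters. The E-box was in 9 of the 61 (7.15% of all promoters), the interferon-stimulated letters in 2 (3.44%), the GAS element in 6 (8.3%), the PU.1 core in 8 (13.6%) and the NF-kB-like site in 0 (1.47%). Counting any start of a gene, the GC box was in 6 of 8 higher, 12 of 14 lower and 12 of 17 genes that did not pass, and the PU.1 core in 1 of 8, 1 of 14 and 6 of 17. The interferon-stimulated letters were in 2 of 8 higher genes, Rab10os and Rab19, and in 0 of 14 and 0 of 17. The E-box was in 3 of 8, 3 of 14 and 1 of 17, and the GAS element in 2 of 8, 2 of 14 and 0 of 17. The percentages over all promoters count single promoters, so they are no like background for these counts per gene. A share over all genes was not counted. A match is a description of the letters, not of binding.

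4 promoters show these letters, with matches to any of the 6 motifs in capitals (a match on the other strand appears as its reverse complement). Rab3il1, with the lowest log2 fold change, has 5 listed starts, and the one shown carries E-boxes and GC boxes. The promoter from 10018001 overlaps it and has both motifs as well. That from 10014797 has a GC box only, and those from 10001419 and 10001475 have none of the 6 motifs. Rab3d, Rab19 and Rab10os were chosen after their values and matches were seen, Rab3d as the lowest GTPase gene and the other two for the interferon-stimulated letters. The coordinates belong to the RefSeq build and not to mm8, which the submitters name.
Rab3il1 (GRCm38.p6, chr19:10017944-10018243, plus strand): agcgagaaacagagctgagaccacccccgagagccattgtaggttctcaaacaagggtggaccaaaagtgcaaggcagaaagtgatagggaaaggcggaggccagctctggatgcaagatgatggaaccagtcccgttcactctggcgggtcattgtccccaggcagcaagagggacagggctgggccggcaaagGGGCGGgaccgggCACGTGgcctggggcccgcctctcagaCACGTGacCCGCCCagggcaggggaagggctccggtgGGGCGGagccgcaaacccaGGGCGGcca
Rab3d (GRCm38.p6, chr9:21918134-21918433, minus strand): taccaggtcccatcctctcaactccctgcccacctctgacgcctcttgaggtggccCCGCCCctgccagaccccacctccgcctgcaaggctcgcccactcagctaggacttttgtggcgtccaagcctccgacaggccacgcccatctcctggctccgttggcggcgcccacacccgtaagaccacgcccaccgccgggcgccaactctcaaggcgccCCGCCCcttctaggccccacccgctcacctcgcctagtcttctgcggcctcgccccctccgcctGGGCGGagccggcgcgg
Rab19 (GRCm38.p6, chr6:39381103-39381402, plus strand): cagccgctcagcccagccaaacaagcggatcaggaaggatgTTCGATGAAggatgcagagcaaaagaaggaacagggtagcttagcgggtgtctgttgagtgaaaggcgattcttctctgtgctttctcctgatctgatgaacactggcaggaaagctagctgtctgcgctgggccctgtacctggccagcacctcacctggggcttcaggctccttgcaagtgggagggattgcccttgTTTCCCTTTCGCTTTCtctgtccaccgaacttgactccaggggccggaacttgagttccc
Rab10os (GRCm38.p6, chr12:3235541-3235840, plus strand): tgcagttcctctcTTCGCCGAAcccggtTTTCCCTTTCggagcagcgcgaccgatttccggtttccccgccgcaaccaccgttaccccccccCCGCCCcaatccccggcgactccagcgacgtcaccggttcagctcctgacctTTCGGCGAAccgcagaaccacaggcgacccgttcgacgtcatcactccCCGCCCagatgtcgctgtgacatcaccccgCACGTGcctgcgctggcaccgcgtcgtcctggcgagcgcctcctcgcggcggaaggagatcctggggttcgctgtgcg

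Among the Rabs of the endoplasmic reticulum and Golgi, 10 of 14 were tested, 2 were higher (20%, against 12.7% of all genes), 4 lower (40%, against 31.7%) and 4 did not pass. Rab43, a Golgi Rab that has been linked to cross-presentation in dendritic cells, stood at 41.55, 32.97 and 38.46 FPKM in Sg-Con and at 58.05, 70.65 and 71.88 in Sg-C3. Every Sg-C3 library was above every Sg-Con one, a 1.78-fold rise in mean FPKM from 37.7 ± 4.35 to 66.9 ± 7.65 (SD, n = 3 here and below). The log2 change, given here and below with its SE after the sign ±, was 0.81 ± 0.12 (limma adjusted p = 0.00394). The summed dendritic cell markers were also higher in Sg-C3, at 58.4, 74.3 and 47.8 FPKM in libraries 1 to 3. Of that sum Ccr7 made up 30.92, 46.05 and 21.46 FPKM. The sum was lowest in library 3, where Rab43 was highest, but its genes differed in order. Xcr1 (5.37, 7.85 and 3.81 FPKM) and Kit (2.2, 2.85 and 1.75) were lowest in library 3, as Ccr7 was. Batf3 (7.8, 6.15 and 9.68) and Clec9a (0.62, 1.16 and 1.46, under the filter) were highest in library 3. A link of these genes to Rab43 was not tested. Rab19, another Golgi Rab, was near the filter, at 1.19, 0.72 and 1.2 FPKM in Sg-Con and 3.03, 1.98 and 1.82 in Sg-C3 (log2 change 0.68 ± 0.18, adjusted p = 0.0199). Its highest value was in Sg-C3 library 1, and the call was lost without that library (adjusted p = 0.0551) and without Sg-Con library 2 (0.0597). With a pseudocount of 0.1 the log2 fold change of Rab19 was 1.06.

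Rab34, which acts in lysosome positioning and in macropinocytosis, fell from 12.71, 14.91 and 9.96 FPKM to 7.43, 5.77 and 6.67 (log2 change -0.82 ± 0.16, adjusted p = 0.00761), with no overlap. Rab1a, which carries cargo from the endoplasmic reticulum to the Golgi, fell from 133.57, 148.37 and 129.3 to 97.08, 99.62 and 91.15 FPKM (log2 change -0.51 ± 0.09, adjusted p = 0.00568). Both groups of Rab1a values were tight, and the lowest Sg-Con value was still above the highest Sg-C3 value. Its relative Rab1b (105 ± 5.02 to 84.2 ± 4.08 FPKM, log2 fold change -0.31) and the lipid droplet Rab Rab18 (22.5 ± 1.53 to 16.7 ± 0.607, -0.41) were called lower as well, at adjusted p = 0.0213 and 0.0117. After median-ratio scaling neither passed (adjusted p = 0.177 and 0.08), and Rab1b did not pass without Sg-Con library 1 (0.0689), Sg-Con library 3 (0.0588) or Sg-C3 library 2 (0.066). The Golgi Rab Rab6a did not pass at adjusted p = 0.0531, with 33 ± 2.65 and 27.4 ± 0.562 FPKM, but was called lower among genes with a mean of at least 5 FPKM (0.0489) and with array weights (0.0419). The other three, Rab2a, Rab2b and Rab33b, had log2 fold changes of -0.08, -0.03 and 0.07.

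All 7 early endosomal Rabs were tested, and 4 were lower (57.1%, against 31.7% of all genes), 1 was higher (14.3%, against 12.7%) and 2 did not pass, with a median log2 fold change of -0.51 against -0.16 for all genes. Rab31, which moves cargo between the Golgi and endosomes, fell from 56.27, 68.53 and 61.66 to 32.8, 29.44 and 36.33 FPKM. The groups were far apart, 1.89-fold in mean (log2 change -0.90 ± 0.11, adjusted p = 0.00235). Rab21, which guides integrins through early endosomes, stood at 42.14, 54.8 and 46.48 FPKM in Sg-Con and 23.33, 28.61 and 31.95 in Sg-C3 (log2 change -0.76 ± 0.15, adjusted p = 0.00739). Rab20, a Rab of maturing phagosomes in macrophages, went the other way, from 108 ± 12.3 to 138 ± 6.44 FPKM (log2 change 0.35 ± 0.10, adjusted p = 0.0298). That call on Rab20 was held without Sg-Con library 1 (adjusted p = 0.0206) and lost without Sg-Con library 2 (0.0762), Sg-Con library 3 (0.0904), Sg-C3 library 1 (0.0695), Sg-C3 library 2 (0.0678) or Sg-C3 library 3 (0.07).

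The Rab5 genes code for the Rabs that fuse early endosomes, and 2 of the 3 were called lower. Rab5c, by far the most abundant, fell from 265.78, 291.77 and 255.3 to 190.47, 183.48 and 193.23 FPKM (log2 change -0.51 ± 0.09, adjusted p = 0.00485), without overlap. Rab5b fell from 28.98, 32.74 and 26.47 to 16.91, 19.45 and 22.77 FPKM (log2 change -0.56 ± 0.13, adjusted p = 0.0145). For Rab5b the adjusted p was 0.0608 after median-ratio scaling and 0.0514 without Sg-C3 library 2. Rab5a stood at 37.23, 46.23 and 47.19 FPKM in Sg-Con and at 54.54, 51.61 and 37.86 in Sg-C3, where library 3 fell among the Sg-Con values, and it did not pass (log2 change 0.13 ± 0.16, adjusted p = 0.537). Rab22a, the close relative of Rab31, did not pass either, at 29.6 ± 4.12 and 40.2 ± 10 FPKM (log2 change 0.41, adjusted p = 0.122), but was called higher without Sg-C3 library 3 (0.62, adjusted p = 0.015).

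Late endosomal and lysosomal Rabs numbered 7, of which 6 were tested, with 3 lower (50%, against 31.7% of all genes), 1 higher (16.7%, against 12.7%) and 2 not passing. Rab7, which drives late endosomes and phagosomes to fuse with lysosomes, was the most abundant Rab and did not pass. It stood at 245.79, 328.92 and 326.36 FPKM in Sg-Con and at 273.64, 292.18 and 238.62 in Sg-C3, overlapping in part (log2 change -0.16 ± 0.14, adjusted p = 0.391), and its sign flipped to 0.01 after median-ratio scaling. Rab7b, known to promote the lysosomal breakdown of Toll-like receptors, fell from 37.58, 31.27 and 31.1 to 13.82, 15.81 and 24.05 FPKM (log2 change -0.89 ± 0.20, adjusted p = 0.0113). Within Sg-C3 the third library was the highest for Rab7b and the nearest to Sg-Con. Rab29, a lysosomal and Golgi Rab that binds the kinase LRRK2, fell from 15.6, 13.16 and 10.13 to 5.58, 5.65 and 7.53 FPKM (log2 change -0.94 ± 0.18, adjusted p = 0.00688). Here too the third library of each group was the one closest to the other group. Rab7b and Rab29 are neighbours on chromosome 1, with 3 genes (Slc26a9, Pm20d1 and Slc41a1) between them in RefSeq.

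Rab24, which is tied to autophagy, fell from 28.35, 29.69 and 28.21 to 19.72, 17.77 and 21.33 FPKM (log2 change -0.53 ± 0.10, adjusted p = 0.00605), with a wide gap between the groups for their spread. Exons of Rab24 overlap those of Prelid1 on the opposite strand in GENCODE M21, and the labels do not say whether counting used strand. Rab32, a Rab of lysosome-related organelles, stood at 50.44, 64.52 and 48.95 FPKM in Sg-Con and 46.78, 43.09 and 42.56 in Sg-C3. Its groups did not overlap, but it missed the threshold (log2 change -0.29 ± 0.12, adjusted p = 0.0867). Rab9, which returns receptors from late endosomes to the Golgi, was the single higher member, from 25 ± 0.885 to 35.4 ± 8.22 FPKM (log2 change 0.46 ± 0.16, adjusted p = 0.0454). The value of Sg-C3 library 1, 44.7 FPKM, stood above the other two, and without it the log2 fold change of Rab9 was 0.29 (adjusted p = 0.0727). The call was also lost with no filter on low values (0.0569) and without Sg-Con library 1 (0.094), Sg-Con library 2 (0.0845), Sg-Con library 3 (0.104) or Sg-C3 library 2 (0.0816).

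**Figure D2:**
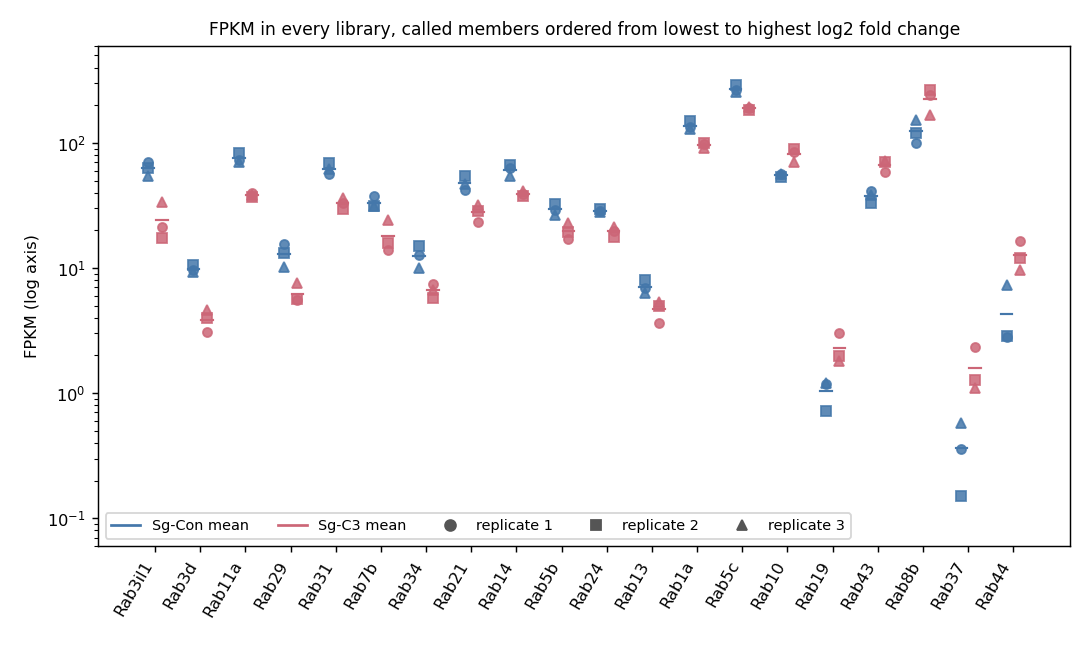
FPKM on a log axis in every library for the 20 genes called with an absolute log2 fold change of at least 0.5, ordered along the x axis from the lowest (Rab3il1) to the highest (Rab44). Marker shapes are the 3 replicates and short lines the group means. The groups overlap in none of the 20 genes, which were chosen by calls on these same values.

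Of 13 Rabs of recycling and of transport to the surface, 11 were tested, and 3 were lower (27.3%, under the 31.7% of all genes), 2 higher (18.2%, against 12.7%) and 6 did not pass. The median log2 fold change was 0.04. Rab11a, the Rab of recycling endosomes, had the lowest adjusted p of all members. It fell from 73.6, 82.38 and 70.76 to 39.51, 36.72 and 38.6 FPKM, 1.97-fold in mean (log2 change -0.96 ± 0.09, adjusted p = 0.00128), and the Sg-C3 values varied little. Rab14, which returns cargo from endosomes to the surface, fell from 63.08, 65.95 and 54.45 to 39.1, 37.35 and 41.58 FPKM (log2 change -0.62 ± 0.10, adjusted p = 0.00463). Rab13, which delivers proteins to cell junctions, stood at 6.88, 7.97 and 6.34 against 3.64, 4.98 and 5.37 FPKM (log2 change -0.52 ± 0.15, adjusted p = 0.0283). The Rab13 call was among the weakest, lost after quantile normalization (adjusted p = 0.111), median-ratio scaling (0.101) and the title style covariate (0.0502), and without Sg-Con library 1 (0.0616), Sg-Con library 2 (0.0871), Sg-C3 library 1 (0.0713) or Sg-C3 library 2 (0.0618).

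Rab8b and Rab10, which carry vesicles from the Golgi to the plasma membrane, rose. Rab8b stood at 100.45, 120.64 and 152.38 FPKM in Sg-Con and at 241.01, 266.74 and 167.7 in Sg-C3, 1.81-fold higher in mean (log2 change 0.84 ± 0.21, adjusted p = 0.0169). The third library of each group narrowed the gap, and the call was lost without Sg-C3 library 1 (adjusted p = 0.0597) or Sg-C3 library 2 (0.0632). Rab10 stood at 56.68, 53.55 and 56.67 FPKM in Sg-Con and at 84.54, 89.15 and 70.56 in Sg-C3 (log2 change 0.53 ± 0.11, adjusted p = 0.00819). Rab10os, the non-coding gene on the other strand, rose beside it from 10.7 ± 0.451 to 14.8 ± 1.12 FPKM (log2 change 0.43, adjusted p = 0.0114). Their exons overlap in GENCODE M21, so without strand their reads cannot be told apart. Rab12 (44.2 ± 9.35 and 60.9 ± 14.3 FPKM, 0.45 on the log2 scale) did not pass and was called higher without Sg-C3 library 3 (log2 change 0.66, adjusted p = 0.0268), and Rab4a, Rab4b, Rab8a, Rab11b and Rab35 had log2 fold changes between -0.21 and 0.07.

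Of 5 secretory granule Rabs 3 were higher (against 12.7% of all genes), 1 lower (against 31.7%) and 1 did not pass, and of the 3 Rab37 was tested through its Sg-C3 values alone. Rab44, a large Rab with EF-hands that acts in granule release from mast cells, had the highest log2(FPKM + 1) change of the members, while in mean FPKM Rab37 rose more (4.33-fold). Rab44 stood at 2.81, 2.87 and 7.27 FPKM in Sg-Con and at 16.4, 12.12 and 9.59 in Sg-C3, 2.94-fold higher in mean (log2 change 1.44 ± 0.33, adjusted p = 0.0125). The third Sg-Con library was well above the first and second, and without it the log2 fold change was 1.81. Rab37, another granule Rab of mast cells, was at 0.36, 0.15 and 0.58 FPKM in Sg-Con and at 2.34, 1.28 and 1.1 in Sg-C3 (log2 change 0.90 ± 0.21, adjusted p = 0.0133). With a pseudocount of 0.1 the log2 fold change of Rab37 was 1.90 and that of Rab44 was 1.65, which turned their order. Since the filter kept Rab37 for its Sg-C3 values, its call is no independent result. Both genes were highest in Sg-C3 library 1, the library with the highest neutrophil sum (1322 FPKM, against 697 and 376 in libraries 2 and 3). The largest parts of that sum were S100a9 (734.3, 408.68 and 189.28 FPKM) and S100a8 (392.63, 184.08 and 85.84), while Csf3r stood at 54.74, 57.69 and 51.41. A link of neutrophil content to Rab44 or Rab37 was not tested. Without Sg-C3 library 1 the log2 fold changes were 1.25 for Rab44 and 0.69 for Rab37, with both still called (adjusted p = 0.0468 and 0.0338). Of the mast cell genes, Cpa3 stood at 0.233 ± 0.0907 and 0.66 ± 0.195 FPKM, Tpsb2 at 0.313 ± 0.0551 and 2.11 ± 0.705, Mcpt4 at 0.253 ± 0.245 and 2.34 ± 1.41, and Fcer1a at no more than 0.17 in any library. Tpsb2 was called higher but passed the filter through Sg-C3 alone. The whole list of 8 mast cell and platelet genes summed to 9.16 to 14.6 FPKM in Sg-Con and 5.62 to 9.95 in Sg-C3. Of these Ppbp was called lower (9.23 ± 2.22 and 0.93 ± 0.562 FPKM).

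Rab27a, which releases lytic granules and exosomes, was higher by a small margin, at 2.44, 2.29 and 2.77 against 3.44, 3.32 and 3.28 FPKM (log2 change 0.31 ± 0.10, adjusted p = 0.0434). The groups did not overlap, but the call was lost without any 1 library (adjusted p from 0.0542 without Sg-Con library 3 to 0.127 without Sg-Con library 2), without the filter (0.063) and with the title style covariate (0.0752). Rab3d, which docks granules for regulated release, had the lowest log2 fold change of the GTPase genes. It fell from 9.68, 10.54 and 9.3 to 3.08, 3.95 and 4.58 FPKM, 2.54-fold in mean (log2 change -1.16 ± 0.14, adjusted p = 0.00201), and was called lower in all 14 settings that gave a value. Rab3a, best known from synapses, was near 1 FPKM and did not pass (1.25 ± 0.07 and 0.803 ± 0.395, adjusted p = 0.131), though it was called lower without Sg-C3 library 3 (log2 change -0.51, adjusted p = 0.0224) and with array weights (0.046).

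Rab3il1, an exchange factor for Rab8 and Rab3 proteins, fell the most of all 45 genes. Its values were 70.29, 63.42 and 53.86 FPKM in Sg-Con and 21.29, 17.48 and 33.51 in Sg-C3, 2.6-fold lower in mean (log2 change -1.38 ± 0.23, adjusted p = 0.00476). The other exchange factor with a Rab name, Rab3ip, stood at 3.38 ± 0.836 and 3.39 ± 0.225 FPKM (adjusted p = 0.928). Rab26os (1 ± 0.684 and 1.73 ± 0.623 FPKM) did not pass, and neither did Rab28 or Rab40c, Rabs outside these routes, with log2 fold changes of -0.09 and -0.23. Epithelial markers fell beside the lower genes, from a sum of 33.6 to 65.1 FPKM down to 4.12 to 8.84, and the epithelial Rab Rab25 was at most 0.2 FPKM in any library.

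The 9 genes under the filter averaged less than 1 FPKM in each group. In 4 of the 9 the groups did not overlap, against 57.6% of all genes that were tested. Rab36 (0.127 ± 0.0231 to 0.42 ± 0.0656 FPKM) and Rab15 (0.0467 ± 0.0379 to 0.147 ± 0.0643) were higher in each Sg-C3 library, and Rab23 (0.893 ± 0.0351 to 0.5 ± 0.137) and Rab33a (0.563 ± 0.218 to 0.113 ± 0.0551) were lower. At this level the gap can be minimal, as for Rab15 with 0.1 FPKM in Sg-C3 library 2 and 0.09 in Sg-Con library 2. Rab25, Rab30, Rab38, Rab39 and Rab42 overlapped, and Rab42 was listed at 0 in all 3 Sg-C3 libraries and in Sg-Con library 3.

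The share of each gene in the summed FPKM of its subfamily was compared within libraries, which does not depend on scaling. In 9 subfamilies with at least 2 genes at a mean of 1 FPKM, 11 shares were tested with an exact two-sided permutation test, whose smallest possible p for 3 against 3 libraries is 0.1. For Rab31 in the sum of Rab31 and Rab22a the shares were 68.2%, 70.8% and 64.3% in Sg-Con and 40.1%, 40.9% and 55.4% in Sg-C3, a mean shift of -22.3 percentage points. Rab11a made up 76.4%, 78.4% and 77.1% of Rab11a and Rab11b in Sg-Con and 61%, 61.7% and 63.5% in Sg-C3 (-15.2 points). Rab8b made up 69.6%, 74.2% and 79.1% of Rab8a and Rab8b in Sg-Con and 86.4%, 88.5% and 82.2% in Sg-C3 (11.4 points). In each of these pairs 1 partner was called and the other was not, and the shares did not overlap between groups.

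Within the Rab5 genes the share of Rab5a went from 12.7% ± 1.58 to 18.7% ± 3.27 and that of Rab5c from 78.8% ± 1.23 to 73.6% ± 2.17. Rab5b held 8.54% ± 0.427 and 7.69% ± 1.26, overlapping. Rab1a held 56.6% ± 2.75 and 53.3% ± 0.862 of the Rab1 sum. These 6 shares without overlap (Rab31, Rab11a, Rab8b, Rab5a, Rab5c and Rab1a) each had p = 0.1 in the exact test and 0.183 after Benjamini-Hochberg adjustment over the 11, so none passed. Shares of Rab2a, Rab3a, Rab4a and Rab7b overlapped (exact p from 0.3 to 0.9). Summed over the subfamily, the level went from 344 ± 23.3 to 257 ± 4.47 FPKM for Rab5, from 97.8 ± 6.79 to 61.7 ± 2.76 for Rab11 and from 167 ± 24.3 to 261 ± 51 for Rab8.

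**Figure D3:**
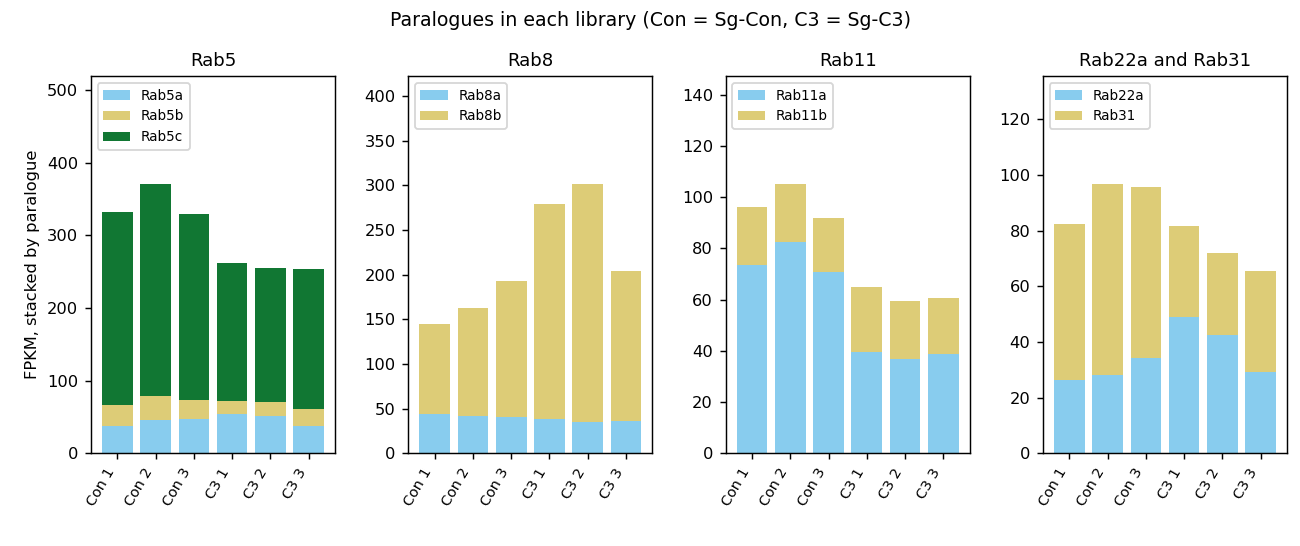
FPKM of close relatives stacked in each of the 6 libraries (y axes start at 0 and differ between panels). Rab11a and Rab31 shrink in the Sg-C3 bars while Rab11b and Rab22a do not, Rab8b grows above Rab8a, and Rab5c makes up most of the Rab5 bar in every library.

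Libraries of one group did not all sit at the same distance from the other group. In 18 of the 45 genes the third library was the nearest to the other group in both Sg-Con and Sg-C3, against 29.7% of all genes tested. Rab8b, Rab44, Rab7b and Rab29 show it in the values above. With the title style as a covariate, 22 of the 26 calls were kept, and Rab13, Rab20, Rab27a and Rab9 were lost. In GENCODE M21, exons of the called genes Rab43, Rab11a, Rab18 and Rab27a overlap those of another annotated gene on the same strand, and those of Rab20 a gene on the opposite strand (E230013L22Rik), so reads there may be shared.

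**Figure D4:**
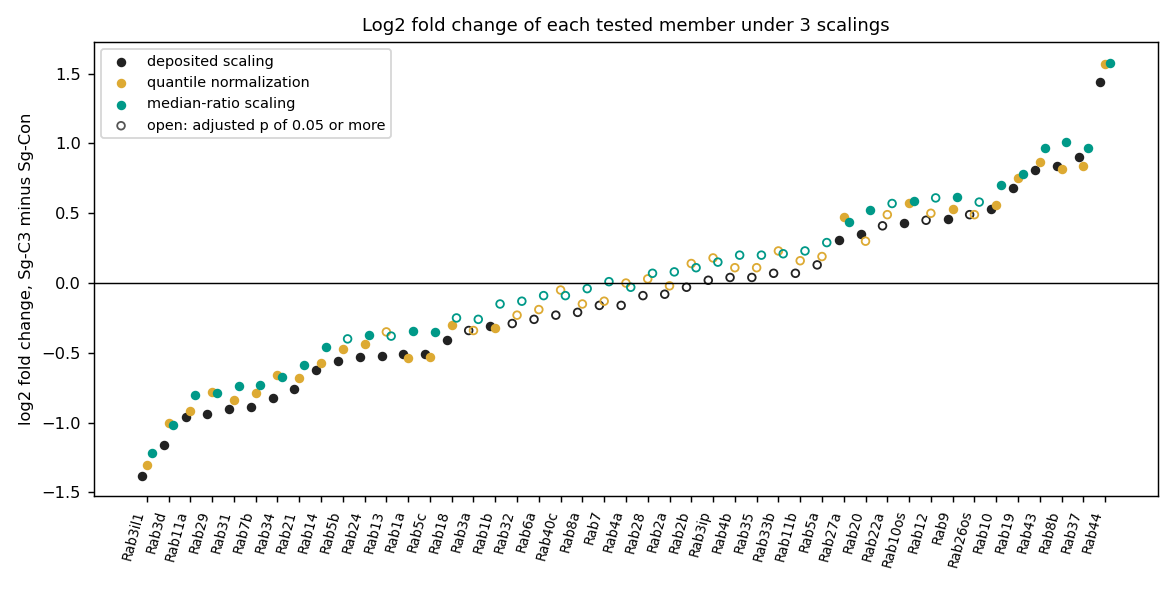
Log2 fold change (y axis) of each tested gene (x axis) under the deposited, the quantile and the median-ratio scaling, filled where adjusted p is below 0.05. Rab13, Rab18, Rab1b and Rab5b turn open after median-ratio scaling and Rab13 and Rab20 after quantile normalization, and no called gene changes side.

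The genes that load, switch off and read out Rabs were taken from 5 lists, with 139 genes tested, 19 higher (13.7%, against 12.7% of all genes) and 54 lower (38.8%, against 31.7%). After median-ratio scaling 25 of the 139 were higher and 30 lower, where 18.6% and 19.1% of all genes were. Of the 139, Dennd3 and Sytl3 passed the filter through Sg-C3 alone, and Dennd2c and Rilp through Sg-Con alone. Exchange factors had 4 of 44 higher (9.09%) and 17 lower (38.6%), or 7 and 8 after median-ratio scaling. Ric1, part of the exchange factor of Rab6, rose from 9.2 ± 0.414 to 24.4 ± 2.48 FPKM (log2 change 1.31 ± 0.10, adjusted p = 8.81e-04). Dennd4c, which activates Rab10, fell from 17.8 ± 3.11 to 5.59 ± 1.16 (log2 change -1.52 ± 0.17, adjusted p = 0.0019), although Rab10 itself was higher. Sbf2, an exchange factor of the DENN family that acts on Rab21, fell from 13.8 ± 0.375 to 6.3 ± 1.19 (log2 change -1.03, adjusted p = 0.00226). Lower exchange factors numbered 9 without Sg-Con library 2 and 10 without Sg-C3 library 1 or Sg-C3 library 2, and the higher ones 2 without Sg-C3 library 1. Over all genes the lower calls fell from 3554 to 2610, 2418 and 1966 in these settings. The higher calls of all genes fell from 1418 to 963 without Sg-C3 library 1.

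GTPase-activating proteins had 6 of 35 higher (17.1%, against 12.7% of all genes) and 14 lower (40%, against 31.7%). After median-ratio scaling 7 were higher and 9 lower, where 18.6% and 19.1% of all genes were. Without Sg-C3 library 2, 9 were lower, while the lower calls of all genes fell from 3554 to 1966. Tbc1d9 and Tbc1d8, which carry the catalytic TBC domain of the family, rose from 33.4 ± 2.38 to 85.8 ± 21 and from 3.17 ± 1.02 to 9.61 ± 2.66 FPKM (log2 changes of 1.31 and 1.35 at adjusted p = 0.00257 and 0.00579). Tbc1d14 and Evi5, which are both tied to Rab11, fell from 20.2 ± 3.6 to 8.89 ± 1.78 and from 4.86 ± 0.874 to 2.17 ± 0.438 FPKM (log2 changes of -1.10 and -0.88 at adjusted p = 0.00394 and 0.00569). Effectors had 9 of 39 higher (23.1%, against 12.7% of all genes) and 13 lower (33.3%, against 31.7%), or 10 and 9 after median-ratio scaling. Higher effectors numbered 5 without Sg-Con library 2 or Sg-C3 library 1 and 4 without Sg-C3 library 2. The higher calls of all genes fell there from 1418 to 998, 963 and 889. Among the higher effectors, Mical1 rose from a mean of 12.7 to 26.2 FPKM (log2 change 1.01, adjusted p = 0.0241). Optn rose from a mean of 2.98 to 6.54 FPKM (log2 change 0.95, adjusted p = 0.0318). The Mical1 call was lost without Sg-Con library 2 or Sg-C3 library 1 or 2 (adjusted p from 0.052 to 0.0765). The Optn call was lost with the title style covariate (0.051) and without library 1 or 2 of either group (0.0795 to 0.103). Rab11fip5, an adaptor of Rab11, fell from 34.2 ± 3.83 to 11.6 ± 1.3 FPKM (log2 change -1.48 ± 0.12, adjusted p = 9.96e-04). Myo5a, a motor that Rab27a and Rab11 recruit, fell from 26.8 ± 2.55 to 9.86 ± 1.65 FPKM (log2 change -1.36, adjusted p = 0.00138), and the endosomal adaptor gene Appl2 from 34.2 ± 7.69 to 13.1 ± 3.14 (-1.32, adjusted p = 0.00376). Sytl3, a Rab27 effector that passed the filter through Sg-C3 alone, stood at 0.363 ± 0.201 and 6.27 ± 4.13 FPKM (log2 change 2.19, adjusted p = 0.0126, but 0.0503 without Sg-C3 library 2), beside T and NK cell markers that summed to 3.52 to 8.85 and 49.9 to 59.2 FPKM.

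The HOPS and CORVET complexes tether endosomes and lysosomes on behalf of Rab7 and Rab5, and 5 of their 8 genes were lower (62.5%, against 31.7% of all genes) and none higher. Vps8 and Tgfbrap1, which belong to CORVET, fell from 9.28 ± 1.23 to 5.48 ± 0.984 and from 11.5 ± 0.777 to 7.06 ± 0.58 FPKM (log2 changes of -0.67 and -0.63 at adjusted p = 0.0112 and 0.00473), and the shared subunit Vps33a from 16.2 ± 1.18 to 11.3 ± 0.416 (-0.49, adjusted p = 0.0075). After median-ratio scaling, with 19.1% of all genes lower, 3 of the 8 were, as without Sg-Con library 1, Sg-Con library 2, Sg-C3 library 1 or Sg-C3 library 2. Of 13 genes for prenylation and membrane extraction of Rabs 5 were lower (38.5%, near the 31.7% of all genes) and none higher, against 1 lower and 1 higher after median-ratio scaling. Rabggta, a subunit of the enzyme that attaches the lipid anchor, fell from 12.7 ± 0.582 to 8.27 ± 0.785 FPKM (log2 change -0.56, adjusted p = 0.00623, and 0.0159 after median-ratio scaling). Gdi2, which extracts Rabs from membranes, had adjusted p = 0.0184 (250 ± 9.71 to 191 ± 20.2 FPKM), but 0.116 after median-ratio scaling. Lower genes in that list numbered 2 without Sg-Con library 1 or Sg-Con library 2, 3 without Sg-Con library 3 and 1 without Sg-C3 library 2. Over all genes the lower calls, 3554 with all libraries, lay from 1966 to 3635 with 1 library left out.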

How the data were processed

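The authors' deposited table holds FPKM values per gene and library, with gene symbols, and its column headers name the unit. Bowtie 0.12.2 and mm8 are named per the submitters' processing notes, and the tool behind the FPKM values was not given in the sources used here. Libraries were grouped by the labelled tumour. The members and gene lists were chosen with earlier results of these data known. Genes reaching 1 FPKM in 3 or more of 6 libraries were tested on log2(FPKM + 1), which understates changes of low genes, with limma 3.58.1 in R 4.3.3 (eBayes with a trend, Benjamini-Hochberg over 11198 genes), after a check on simulated data. Called means an adjusted p below 0.05. Depth was estimated from 108 to 124 values per library of short non-coding genes, with 36 bases taken off each length. It was set where the share of values within 0.1 of a whole read was highest, at 82.8% to 92.6%. The 20% given by chance holds for a depth fixed beforehand, so the difference is no test of the estimate. All 54 identifiers were found in the RefSeq table of GRCm38.p6. Values in every library are given for members called with an absolute log2 fold change of at least 0.5 and for Rab5a, Rab7, Rab27a and Rab32. Of each Rab cycle list, examples come from up to 3 called genes with the highest and lowest fold change. Python 3.11.15, pandas 2.3.3, numpy 2.4.6 and matplotlib 3.10.9 were used.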

Additional observations from a re-analysis of the deposited data

How the results depend on the processing

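Alternatives were a pseudocount of 0.1, no filter, a mean of at least 5 FPKM, median-ratio scaling, quantile normalization, array weights, a robust variance prior, a title style covariate, a threshold of 0.1 on the adjusted p and each library left out (with the tested genes kept). Of the 26 called members none changed sign, and between 19 and 26 of those with a value were kept per setting. With a library left out, 5 to 10 members were higher and 13 to 17 lower, and of the Rab cycle genes 11 to 20 were higher and 32 to 54 lower. Over all genes 889 to 1518 were then higher and 1966 to 3635 lower, against 1418 and 3554 with all libraries. The 54 lower Rab cycle genes became 30 after median-ratio scaling and 35 after quantile normalization, while the 3554 lower genes of all became 2134 and 2449. Among members that did not pass, the log2 fold change reversed after median-ratio scaling for Rab2a (0.08), Rab2b (0.11), Rab7 (0.01) and Rab28 (0.07), and after quantile normalization for Rab2b (0.14), Rab4a (0.0049) and Rab28 (0.03). It also reversed for Rab33b (-0.01) and Rab35 (-0.06) without Sg-Con replicate 1, as for Rab4b (-0.04) and Rab3ip (-0.13), for Rab33b (-0.01), Rab35 (-0.04), Rab2b (0.05) and Rab3ip (-0.02) without Sg-C3 replicate 1 and for Rab35 (-0.04) and Rab2b (0.01) without Sg-C3 replicate 2. With 1 library left out, the values reached 0.19 for Rab33b, 0.19 for Rab35 and -0.14 for Rab2b (each without Sg-C3 replicate 3), and 0.13 for Rab4b and 0.15 for Rab3ip (both without Sg-Con replicate 2). The share of Rab2a in its subfamily, -0.384 points, became 0.831 points without Sg-C3 replicate 3 and lay from -1.25 to 0.831 over the libraries left out. The cause of these changes was not tested. No paired analysis was possible because the labels give the groups no shared replicate numbers.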
